A study of Mus musculus with 8 samples.

Results

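Mesenchymal cells become fat cells through a relay of transcription factors. C/EBPβ and C/EBPδ act early in that relay, and PPARγ and C/EBPα act later, keep each other active and switch on the genes that bring fatty acids into the cell and store them. NIH3T3 cells are mouse embryonic fibroblasts, which respond to Hedgehog ligand and do not readily become fat cells unless such a regulator is supplied. The 10 genes described here were the regulators Cebpb, Cebpd, Pparg and Cebpa, the intracellular fatty acid carriers Fabp4 and Fabp5, the lipid-uptake genes Lpl and Cd36, the lipid-droplet coat gene Plin2, and Steap4, a metalloreductase gene known from adipose tissue. They were chosen by name. Each was then found by position, as the assembled locus of a sample that best matched the annotated mm9 gene, taken as the whole gene or as a single transcript of it, with the shared bases making up at least 0.5 of all bases covered by either. A locus can therefore be shorter than the gene. The series held 20195 genes with such a locus in all 8 samples, and 9 of the 10 genes were among them. For Cebpd, 3 of the 8 samples met the rule, and its values below come from the locus that contained the gene.

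RNA-Seq had been performed on 4 conditions with 2 samples each. Control cells carried the empty vector pcDNA3.1 (Zeo+) and received vehicle, which was medium of HEK293 cells (a human embryonic kidney line) lacking the Sonic Hedgehog transgene, diluted alike. Hh-CM cells carried the empty vector and received Hedgehog conditioned medium, taken from HEK293 cells that carry a transgene encoding the Sonic Hedgehog N-terminus. Libraries labelled Esrrb came from cells given the pcDNA3.1 (Zeo+)-Esrrb expression vector, for estrogen related receptor β, an orphan nuclear receptor, and then vehicle, and those labelled Esrrb+Hh-CM from such cells given Hh-CM. All 4 conditions had been under zeocin selection at 150 µg/ml, and the medium was diluted 100 fold and left on confluent cells for 48 h in 5% newborn calf serum. The cells of separate transfections had been pooled, and the sources used here do not state from which transfection or culture each sample came, so the p-values measure the spread between these samples only.

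The values are FPKM, fragments scaled by transcript length and by the number mapped in the sample, so levels of different genes can be set side by side. The tables hold no read counts. The steps between low FPKM values placed the depth of the samples between 0.743 and 1.54 times that of Control 1. Gli1, the standard Hedgehog target, was at 0.0217 and 0.0308 FPKM in Control and at 26.8 and 28.1 FPKM in Hh-CM, and Ptch1, the receptor gene, rose from 2.71 to 37.0 FPKM (means of 2 samples). Esrrb, the gene on the vector, went against the labels. It was listed at 0 in all 4 libraries labelled Esrrb or Esrrb+Hh-CM and in both Control libraries. Its only values above 0 were 0.0281 and 0.0203 FPKM, in the empty vector Hh-CM libraries. These were equal once scaled by the relative depth of the samples. The sources used here do not give the insert sequence of the vector, and whether its transcripts would be counted at the mouse locus was not tested. The presence of the vector was thus not shown by these values. The study itself reported Esrrb protein by Western blot in cells transfected with the Esrrb vector. Every difference with Esrrb given below is one between libraries labelled so and the others. Of 9 fibroblast markers, 8 had a locus, and all 8 were above 1 FPKM in every sample, with summed levels of 5182 to 6113 FPKM. The fat cell markers Adipoq, Lep, Cidec and Ucp1 were listed at 0 in every sample. In bulk RNA of this kind, fewer cells expressing a gene and less of its RNA per cell cannot be told apart.

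The 10 genes covered the whole range of expression. Averaged over the 8 samples, Lpl stood at 139 FPKM, above 97.7% of the 20195 genes, Fabp5 at 100.0 FPKM, Plin2 at 56.7 FPKM, Cebpb at 53.8 FPKM and Steap4 at 40.6 FPKM. Fabp4 stood at 4.66 FPKM, above 60.0% of the genes, and Pparg, Cd36 and Cebpa were at or next to 0. In Control the order was Fabp5, Lpl, Plin2, Cebpb, Cebpd, Steap4 and Fabp4, and only the neighbours Cebpb and Cebpd overlapped among these 7. In Esrrb+Hh-CM the order was Lpl, Fabp5, Steap4, Cebpb, Cebpd, Plin2 and Fabp4. There Cebpb overlapped with Cebpd, and Cebpd with Plin2. Steap4 thus moved from the sixth place to the third. By its mean Plin2 moved from the third to the sixth, a place not resolved from that of Cebpd.

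**Figure D1:**
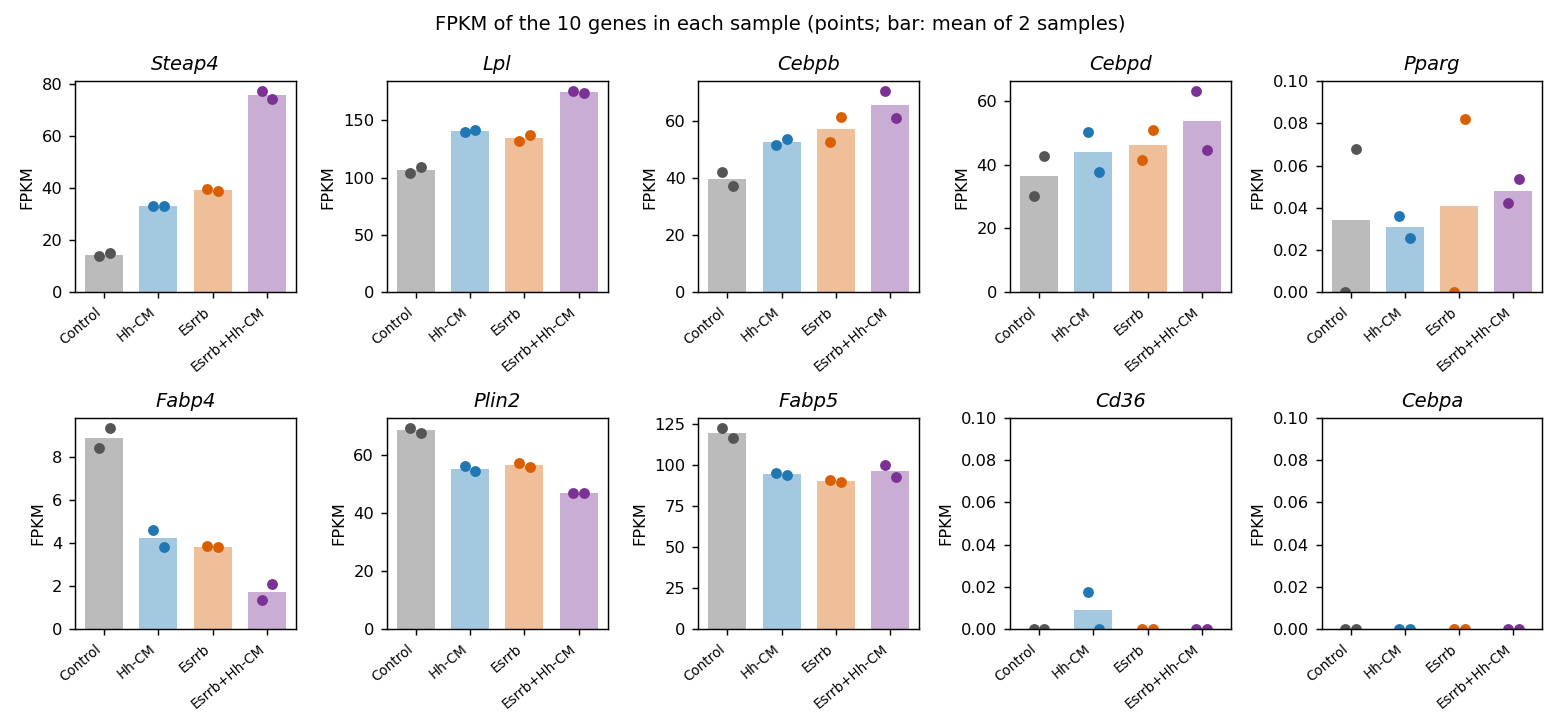
FPKM of each of the 10 genes in the 8 samples, with 1 panel per gene, points for samples and bars for the mean of 2 samples. Steap4, Lpl and Cebpb were lowest in Control and highest in Esrrb+Hh-CM, Fabp4 and Plin2 ran the other way, and Pparg, Cd36 and Cebpa stayed below 0.1 FPKM. The Cebpd value of Hh-CM 1 came from a much longer locus than the others.

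The tests used limma on log2(FPKM + 0.1), over 10283 genes that reached 1 FPKM in 2 or more samples, with Benjamini-Hochberg adjustment. A gene was called where the adjusted p was under 0.05 and the fold limit was met, a log2 change of 1 or more in either direction. Of the 10 genes, 6 were tested, Fabp4, Fabp5, Cebpb, Lpl, Plin2 and Steap4, each above 1 FPKM in all 8 samples, while Pparg, Cebpa and Cd36 fell below the filter. In Hh-CM against Control, 2 of the 6 were called, against 2.76% of all tested genes, and 5 of the 6 passed the adjusted p alone, against 18.0%. In Esrrb against Control, 2 of 6 were called (1.47% of all tested genes) and 6 of 6 passed the adjusted p alone (16.4%). In Esrrb+Hh-CM against Control, 2 of 6 were called (6.21%) and 6 of 6 passed the adjusted p alone (35.0%). In each of these, Steap4 was the gene called higher and Fabp4 the gene called lower. The 3 comparisons share their Control samples, and the genes were chosen with results of these data known, so the counts describe these genes and are not independent support for one another. The medians over the 6 genes, 0.04, 0.03 and 0.20 on the log2 scale, stood beside medians over all tested genes of 0.04, 0.05 and 0.08, with 3 of the 6 genes higher and 3 lower than Control in each comparison.

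**Figure D2:**
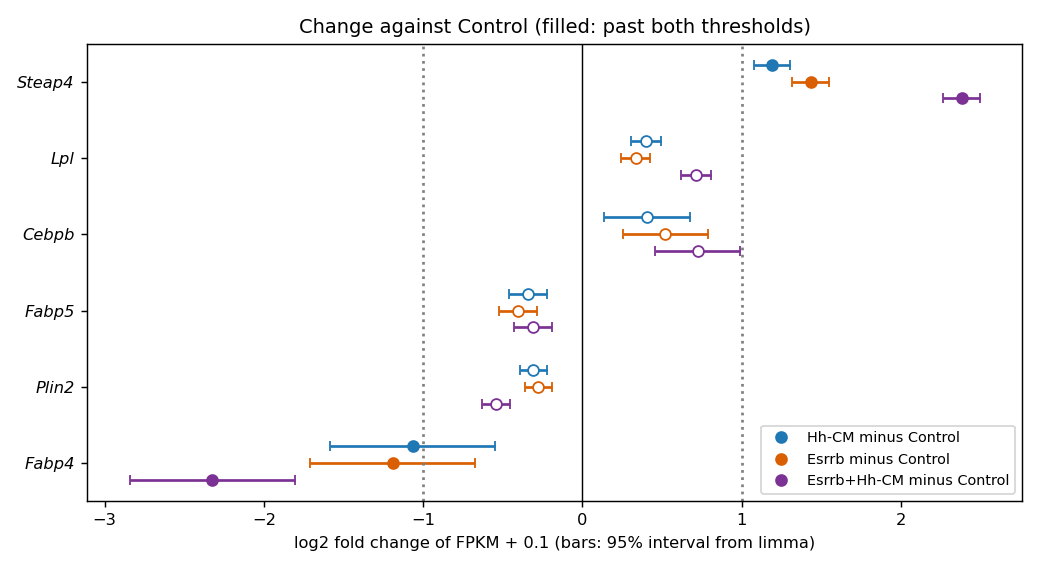
Log2 fold changes of FPKM + 0.1 against Control for the 6 tested genes, in Hh-CM, Esrrb and Esrrb+Hh-CM. Horizontal bars give the 95% interval from limma, filled points passed both thresholds and dotted lines mark a log2 change of 1 in size. Each of the 6 genes lay on the same side of 0 in all 3 comparisons, and only Steap4 and Fabp4 passed the dotted lines.

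Steap4, which encodes a plasma membrane metalloreductase that reduces iron and copper, rose with either treatment and most with both. It was at 14.0 and 14.9 FPKM in Control, 33.2 and 33.1 FPKM in Hh-CM, 39.6 and 38.7 FPKM in the libraries labelled Esrrb, and 77.2 and 74.3 FPKM in those labelled Esrrb+Hh-CM. No 2 conditions overlapped, and the samples of a condition lay close together. Steap4 was 2.28-fold higher in Hh-CM than in Control (log2 1.19 ± 0.05 SE, limma adjusted p = 8.8e-05), 2.70-fold higher in Esrrb (adjusted p = 6.6e-05) and 5.21-fold higher in Esrrb+Hh-CM (adjusted p = 5.7e-06). It was called in Esrrb+Hh-CM against Hh-CM, with a 2.28-fold increase. Against Esrrb alone the increase was 1.93-fold, with an adjusted p of 0.000107 and a log2 change of 0.95, under the fold limit.

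The Steap4 gene lies on mm9 chromosome 5 from 7960472 to 7982213 on the plus strand. Steap4 and Plin2, the lipid-droplet gene, have a promoter in the RefSeq table for GRCm38.p6, and the 250 bases ahead of each start site are shown because these genes rose and fell, respectively, with both treatments. They lie at chr5:7960222-7960471 on the plus strand and at chr4:86670060-86670309 on the minus strand. Capitals mark matches to the motifs named after them.
Steap4: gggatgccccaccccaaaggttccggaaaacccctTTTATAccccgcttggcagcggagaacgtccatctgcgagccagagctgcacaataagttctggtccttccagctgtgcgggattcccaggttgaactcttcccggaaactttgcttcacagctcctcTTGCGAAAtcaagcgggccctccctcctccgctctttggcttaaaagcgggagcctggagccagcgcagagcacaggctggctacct
Plin2: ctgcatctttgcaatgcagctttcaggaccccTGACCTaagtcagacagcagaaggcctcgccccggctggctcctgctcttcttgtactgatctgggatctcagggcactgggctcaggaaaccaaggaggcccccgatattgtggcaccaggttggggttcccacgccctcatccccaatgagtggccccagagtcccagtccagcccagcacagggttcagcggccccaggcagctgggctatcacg
In Steap4 the capitals are the TATA box letters TATAAA, read on the opposite strand, with the first base at -215 from the start, and a C/EBP element, TTNNGCAA, also on the opposite strand, at -87. In Plin2 they are the nuclear receptor hexamer AGGTCA on the opposite strand, at -218. These are letter matches and no binding was measured. Over the whole 300-base windows of 32851 promoters, searched on both strands, TATAAA was found in 13.6%, TTNNGCAA in 10.8% and AGGTCA in 16.3%. Of the 10 genes, 6 had a promoter in the table, with 8 promoters in all. None of the 8 held the estrogen-related receptor element TCAAGGTCA (0.423% of all promoters), the Gli element GACCACCCA (0.253%) or the PPAR direct repeat (0.0396%). The hexamer AGGTCA is part of the first and the third of these, so such matches would count for both. AGGTCA was also in the promoter of Cd36 and in 2 of 3 promoters of Pparg. Fabp4, Fabp5, Lpl and Cebpd were not in the table.

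Fabp4, the fatty acid carrier typical of fat cells, macrophages and capillary endothelium, moved opposite to Steap4. It was at 8.40 and 9.34 FPKM in Control, 4.61 and 3.79 FPKM in Hh-CM, 3.85 and 3.81 FPKM in the libraries labelled Esrrb, and 1.35 and 2.11 FPKM in those labelled Esrrb+Hh-CM. The Control samples were above all others and the Esrrb+Hh-CM samples below all others, while Hh-CM and Esrrb overlapped. Fabp4 was 2.09-fold lower in Hh-CM than in Control (log2 -1.06 ± 0.21 SE, limma adjusted p = 0.0217), 2.28-fold lower in Esrrb (adjusted p = 0.0184) and 5.00-fold lower in Esrrb+Hh-CM (adjusted p = 0.000664). It was 2.39-fold lower in Esrrb+Hh-CM than in Hh-CM (adjusted p = 0.0137) and 2.19-fold lower than in Esrrb (adjusted p = 0.0135). With Steap4, this made 2 of 6 genes called in Esrrb+Hh-CM against Hh-CM (1.97% of all tested genes) and 4 of 6 past the adjusted p alone (18.9%). In Esrrb+Hh-CM against Esrrb, Fabp4 was the 1 gene of 6 called (4.81%), and 4 of 6 passed the adjusted p alone (23.4%).

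The 4 Fabp4 calls with the smaller changes were each lost when certain samples were left out. In Hh-CM against Control the adjusted p was 0.075 without Control 1, 0.0994 without Control 2, 0.0565 without Hh-CM 1 and 0.102 without Hh-CM 2. In Esrrb against Control it was 0.0699 without Control 1, 0.0855 without Control 2, 0.0786 without Esrrb 1 and 0.0769 without Esrrb 2. Against Hh-CM, the combined condition gave an adjusted p of 0.0747 without Hh-CM 1, and a log2 change of -0.95, under the fold limit, without Esrrb+Hh-CM 1. Against Esrrb it gave an adjusted p of 0.0643 without Esrrb 1 and 0.0611 without Esrrb 2, and a log2 change of -0.83 without Esrrb+Hh-CM 1. These 4 calls were also lost with no filter on low values, at adjusted p values of 0.0771, 0.0641, 0.0502 and 0.0555 in the order above. With a pseudocount of 1, the log2 change was -0.93 in Hh-CM against Control, -0.94 in Esrrb+Hh-CM against Hh-CM and -0.84 against Esrrb, all under the fold limit. With the compared groups alone in the fit, the adjusted p was 0.0656 in Esrrb+Hh-CM against Hh-CM and 0.0527 against Esrrb. The fall from Control to Esrrb+Hh-CM was called with any of the 8 samples left out, with log2 changes from -2.62 to -2.02. The gene lies on mm9 chromosome 3, from 10204347 to 10208576 on the minus strand, and its locus had the same ends in every sample.

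Markers of the other cell types that express Fabp4 were low. Of 8 endothelial markers, Kdr, Emcn and Cldn5 were at 0 in every sample, 6 were under 1 FPKM throughout, and the list summed to 2.13 to 2.14 FPKM in Control, 1.69 to 2.25 with Hh-CM, 1.03 to 1.07 with Esrrb and 1.43 to 1.92 with both. Flt1, a VEGF receptor gene, fell from 1.98 FPKM in Control to 0.651 in Hh-CM (limma adjusted p = 0.0154) and 0.195 in Esrrb+Hh-CM (adjusted p = 0.000824), and without Hh-CM 1 the first of these had an adjusted p of 0.056. Tek, an angiopoietin receptor gene, rose from 0.0889 FPKM in Control to 1.15 in Hh-CM (limma adjusted p = 0.0042) and 1.31 in Esrrb+Hh-CM (adjusted p = 0.00169). Of 9 macrophage markers, 8 had a locus, 5 of these were under 1 FPKM throughout and the list summed to 4.47 to 6.06 FPKM in Control, 6.86 to 7.33 with Hh-CM, 6.84 to 8.90 with Esrrb and 6.54 to 8.14 with both. The samples were cultures of the NIH3T3 fibroblast line and not pieces of tissue. Whether any other cells added to the Fabp4 values was not tested. The list of 15 fat cell markers summed to 4.59 to 6.40 FPKM over the 8 samples, 13 of them were under 1 FPKM throughout, and neither of the 2 that were tested, Retn and Lipe, passed the adjusted p in any comparison.

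Fabp5, the epidermal-type fatty acid carrier, which also has pseudogene copies that could share its reads, was far more abundant than Fabp4 and fell less. It was at 123 and 116 FPKM in Control, 94.8 and 93.5 FPKM in Hh-CM, 90.7 and 89.6 FPKM in the libraries labelled Esrrb, and 99.9 and 92.5 FPKM in those labelled Esrrb+Hh-CM. Control lay above the other 3 conditions, and Esrrb+Hh-CM overlapped with Hh-CM. The fall was 1.27-fold with Hh-CM (limma adjusted p = 0.00705), 1.32-fold with Esrrb (adjusted p = 0.00552) and 1.24-fold with both (adjusted p = 0.00524), each under the fold limit. Between Esrrb+Hh-CM and Hh-CM the log2 difference was 0.03 (95% interval -0.09 to 0.15, adjusted p = 0.71), and its sign turned to -0.02 after rescaling of the samples. Fabp5 is on mm9 chromosome 3 from 10012548 to 10016607 on the plus strand.

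Lpl encodes lipoprotein lipase, the secreted enzyme that frees fatty acids from lipoprotein triglyceride. Its levels were 104 and 110 FPKM in Control, 140 and 142 FPKM in Hh-CM, 132 and 137 FPKM in the libraries labelled Esrrb, and 176 and 174 FPKM in those labelled Esrrb+Hh-CM. No 2 conditions overlapped, and Lpl was the most abundant of the 10 genes in every condition but Control. It rose 1.32-fold with Hh-CM (log2 0.40 ± 0.04 SE, limma adjusted p = 0.00167), 1.26-fold with Esrrb (adjusted p = 0.00444) and 1.64-fold with both (adjusted p = 0.000103), and the combined condition was above Hh-CM (1.24-fold, adjusted p = 0.00531) and above Esrrb (1.30-fold, adjusted p = 0.00128). None of these changes reached the fold limit. Cd36, which encodes a fatty acid translocase of the cell surface, was at 0.0176 FPKM in Hh-CM 1 and listed at 0 in the other 7 samples. With a single value above 0, the FPKM that 1 fragment was worth could not be read for this gene. No difference between conditions could be resolved at this depth. Lpl lies on mm9 chromosome 8 from 71404390 to 71431347 on the plus strand, and Cd36 on chromosome 5 from 17287508 to 17394777 on the minus strand.

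Plin2, the perilipin that coats lipid droplets in most cell types, fell in steps. It was at 69.2 and 67.4 FPKM in Control, 55.9 and 54.3 FPKM in Hh-CM, 57.0 and 55.8 FPKM in the libraries labelled Esrrb, and 46.8 and 46.9 FPKM in those labelled Esrrb+Hh-CM. Hh-CM and Esrrb overlapped, while Control was above and Esrrb+Hh-CM below all other samples. The fall was 1.24-fold with Hh-CM (log2 -0.31 ± 0.03 SE, limma adjusted p = 0.00312), 1.21-fold with Esrrb (adjusted p = 0.00639) and 1.46-fold with both (adjusted p = 0.000191), under the fold limit each time. The annotated gene spans chromosome 4 from 86294290 to 86315964 in mm9. The assembled locus was 13495 bases long in the 6 samples of the other conditions and 21649 and 21621 bases long in the 2 Esrrb+Hh-CM samples, which moves with the lower values there. The part of the assembly in that fall was not tested.

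The early regulator Cebpb, the gene for C/EBPβ, was at 42.2 and 37.3 FPKM in Control, 51.5 and 53.7 FPKM in Hh-CM, 52.8 and 61.5 FPKM in the libraries labelled Esrrb, and 70.5 and 60.9 FPKM in those labelled Esrrb+Hh-CM. Control lay below all other samples, and Esrrb overlapped with Hh-CM and with Esrrb+Hh-CM. Cebpb rose 1.44-fold with Esrrb (log2 0.52 ± 0.11 SE, limma adjusted p = 0.0294) and 1.65-fold with both (adjusted p = 0.00451). With Hh-CM it was 1.33-fold higher, with an adjusted p of 0.0546, which missed the threshold, and it passed at 0.0462 with only genes of 1 FPKM in every sample, 0.0488 with the compared groups alone, 0.049 with an overlap of 0.8 and 0.039 with identical loci. The adjusted p of the Esrrb change was 0.0639 without Control 1, 0.119 without Control 2, 0.0544 without Hh-CM 1, 0.0546 without Hh-CM 2 and 0.111 without Esrrb 2. It was 0.094 with no filter, 0.067 with the compared groups alone and 0.058 with the replicate number as a block, while the change with both treatments kept an adjusted p of at most 0.0264 with any sample left out. The Hh-CM and Esrrb changes themselves were not compared. Cebpb, a single-exon gene, lies on mm9 chromosome 2 from 167514415 to 167515918 on the plus strand.

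Cebpd, the gene for C/EBPδ, was at 30.2 and 42.6 FPKM in Control, 50.3 and 37.5 FPKM in Hh-CM, 41.4 and 50.8 FPKM in the libraries labelled Esrrb, and 63.0 and 44.4 FPKM in those labelled Esrrb+Hh-CM. Only Esrrb+Hh-CM and Control did not overlap, and the samples of a condition differed more than for the other abundant genes. The 41.4 FPKM of Esrrb 1 was flagged LOWDATA in the deposited values, unlike the other Cebpd values. The locus of Hh-CM 1 was 47488 bases long and ran into a neighbouring gene, while the other 7 loci were 2260 to 3051 bases long, around an annotated length of 1181 bases on mm9 chromosome 16 from 15887379 to 15888559. That annotation lists Cebpd as a pseudogene, although it is the functional gene. Cebpd did not pass the adjusted p in any comparison when the containing locus was fitted. The difference between Esrrb+Hh-CM and Control was 0.56 on the log2 scale (95% interval -0.07 to 1.19, limma adjusted p = 0.148), and the difference between Hh-CM and Control was 0.27, or 0.06 without Hh-CM 1.

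The late regulators were at or next to 0. Cebpa, the gene for C/EBPα, was listed at 0 in all 8 samples. Pparg, the gene for PPARγ, was at 0 and 0.0679 FPKM in Control, 0.0359 and 0.0259 FPKM in Hh-CM, 0 and 0.082 FPKM in the libraries labelled Esrrb, and 0.0421 and 0.0537 FPKM in those labelled Esrrb+Hh-CM. Scaled by relative depth, each Pparg value above 0 was 1 or 2 times the smallest of them. If that smallest value stood for 1 fragment, Pparg rested on at most 2 fragments per sample. Without read counts this could not be checked, and no order of the conditions could be read from Pparg. The related receptor gene Ppara was listed at 0 in 7 of 8 samples. Pparg spans mm9 chromosome 6 from 115311239 to 115440419 and Cebpa chromosome 7 from 35904312 to 35906945, both on the plus strand.

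Whether these genes responded otherwise to Hh-CM in the libraries labelled Esrrb was asked with the interaction, the response to Hh-CM among those libraries minus that among the empty vector libraries, which equals the combined change minus the sum of the 2 single changes. None of the 6 tested genes passed an adjusted p of 0.05, against 1.35% of all tested genes, although 2 of the 6, Fabp5 and Steap4, had an unadjusted p under 0.05. For Steap4 the single changes summed to 2.62 on the log2 scale and the combined change was 2.38, a difference of -0.24 (95% interval -0.40 to -0.08, limma adjusted p = 0.14). For Fabp4 the sum was -2.25 and the combined change -2.32, with a wide interval of the difference from -0.80 to 0.67. The sum and the combined change were 0.73 and 0.71 for Lpl, with an interval from -0.15 to 0.11, and -0.59 and -0.54 for Plin2, with an interval from -0.08 to 0.16. For Fabp5 the sum was -0.74 and the combined change -0.31, a difference of 0.43 (95% interval 0.26 to 0.60) with an adjusted p of 0.0538. With single samples left out, that difference ranged from 0.38 to 0.49. The limma adjusted p was 0.0727 with the replicate number as a block and 0.0417 with rescaled samples. For Cebpb the difference was -0.20 (interval -0.58 to 0.18).

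**Figure D3:**
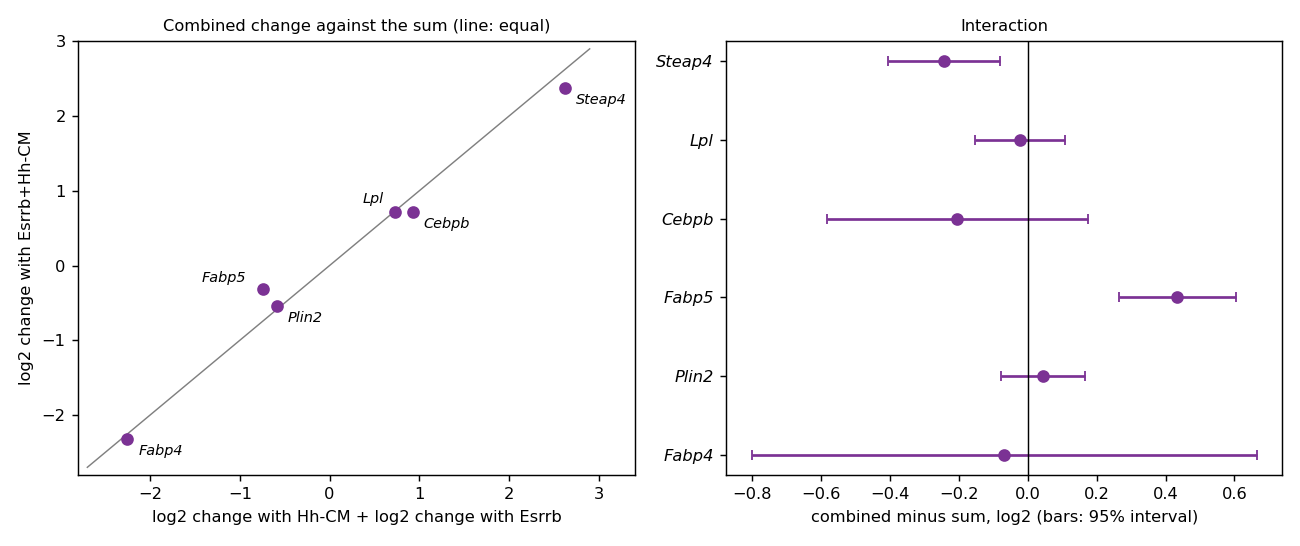
Left, the log2 change in Esrrb+Hh-CM against the sum of the log2 changes in Hh-CM and in Esrrb, all relative to Control, with a line where they are equal. Right, the combined change minus the sum with its 95% interval from limma. Lpl, Plin2 and Fabp4 lie near the line, Fabp5 above it at a difference of 0.43 and Steap4 below it at -0.24, and none passed an adjusted p of 0.05.

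Other regulators of fat cell formation were read from lists chosen with earlier results known. Of 22 further adipogenic transcription factors and coactivators, 16 were tested. With Hh-CM, 1 was called higher, Klf4, a Krüppel-like factor that acts ahead of Cebpb, from 14.6 to 36.9 FPKM (log2 1.34, limma adjusted p = 0.000232), and it stood at 35.7 FPKM in Esrrb+Hh-CM. In the libraries labelled Esrrb, 1 was called lower, Ppargc1a, a coactivator of PPARγ and of estrogen related receptors, from 2.57 and 2.75 FPKM to 0.234 and 0.246 FPKM (log2 -3.02, adjusted p = 0.000494), and it stayed at 0.377 and 0.457 FPKM in Esrrb+Hh-CM. Hh-CM alone left Ppargc1a at 2.67 and 2.84 FPKM, a log2 difference of 0.05. Klf5, a partner of the C/EBP factors, passed the fold limit with both treatments, from 3.61 to 8.97 FPKM, after log2 changes of 0.77 with Hh-CM and 0.49 with Esrrb, and its interaction had an adjusted p of 0.91. Zfp423 was listed at 0 in 7 samples and Prdm16 in all 8. In all, 1, 1 and 3 of the 16 were called with Hh-CM, Esrrb and both, against 2.76%, 1.47% and 6.21% of all tested genes, and their median log2 changes were 0.13, 0.07 and 0.16.

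Of 25 factors known to restrain fat cell formation, 21 were tested, with 2 called higher in Hh-CM, 1 called lower in Esrrb and 1 called higher in Esrrb+Hh-CM, against 2.76%, 1.47% and 6.21% of all tested genes called in either direction. Their median log2 changes were 0.08, 0.03 and 0.28. Hes1, a repressor downstream of Notch, averaged 0.637 FPKM in Control. It rose to 8.47 FPKM with Hh-CM (log2 3.55, limma adjusted p = 0.000532), fell to 0.0845 FPKM in the libraries labelled Esrrb (log2 -2.01, adjusted p = 0.00518), and rose to 2.98 FPKM with both (log2 2.07, adjusted p = 0.00165). With a pseudocount of 1 the fall came to -0.59 on the log2 scale, under the fold limit. Dlk1, the preadipocyte factor Pref-1, was at 448 and 450 FPKM in Control and 2590 and 3030 FPKM in Hh-CM, but at 2042 and 502 FPKM in Esrrb. The 2 Esrrb samples stood far apart, 1 near the Control values and 1 nearer to those of Hh-CM. Its rise in Hh-CM had an adjusted p of 0.0329, and of 0.0586 to 0.129 when Control 1, Control 2, Hh-CM 1, Hh-CM 2, Esrrb+Hh-CM 1 or Esrrb+Hh-CM 2 was left out. It was at 621 and 605 FPKM in Esrrb+Hh-CM, where the difference from Hh-CM had an adjusted p of 0.0541, and its interaction of -3.36 had an adjusted p of 0.121.

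Among 18 further genes of fatty acid and lipoprotein uptake, 16 were tested, and the 1 gene called, with Hh-CM and with both (2.76% and 6.21% of all tested genes), was Angptl4, the secreted inhibitor of lipoprotein lipase. It was at 199 and 196 FPKM in Control, 53.2 and 45.4 FPKM in Hh-CM, 196 and 205 FPKM in the libraries labelled Esrrb, and 31.0 and 28.3 FPKM in those labelled Esrrb+Hh-CM. Both conditions with Hh-CM lay below both without it, and Esrrb overlapped with Control. The fall was 4.01-fold with Hh-CM (limma adjusted p = 0.000109) and 6.65-fold with both (adjusted p = 2.3e-05), and with Esrrb the log2 difference was 0.02 (95% interval -0.18 to 0.23). Lpl itself rose with either treatment, so the fall of its inhibitor gene accompanied the rise of Lpl in the conditions with Hh-CM and not in Esrrb. Without a fold limit, 1 of the 16 passed the adjusted p upwards and 5 downwards with Hh-CM, 4 upwards and 1 downwards with Esrrb, and 6 upwards and 5 downwards with both, against 18.0%, 16.4% and 35.0% of all tested genes in either direction.

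None of 9 tested lipid droplet and lipolysis genes, of 22 listed, was called by limma in any of the 5 comparisons. Over all tested genes, 1.47% to 6.21% were called. Without the fold limit, 1 passed in Hh-CM against Control (18.0% of all tested genes), 0 in Esrrb (16.4%) and 0 in Esrrb+Hh-CM (35.0%). Plin3, the other widely expressed perilipin gene, ranged from 47.3 to 60.7 FPKM, and Plin4 and Plin5 were listed at 0 in every sample. Of 20 PPAR target genes, 13 were tested, and 3 were called lower with Hh-CM (2.76% of all tested genes), 0 with Esrrb (1.47%) and 3 lower with both (6.21%). These were Angptl4, Pdk4, which encodes a kinase that restrains pyruvate oxidation, and Cpt1a, which encodes the carnitine palmitoyltransferase of fatty acid entry into mitochondria. Pdk4 fell from 73.0 FPKM in Control to 33.7 in Hh-CM (limma adjusted p = 4.6e-05) and 19.7 in Esrrb+Hh-CM (adjusted p = 5.7e-06). In Esrrb it was at 65.9 FPKM and passed narrowly, at a log2 change of -0.15 (limma adjusted p = 0.0459). Cpt1a fell from 66.4 to 28.8 FPKM in Hh-CM (adjusted p = 3.0e-05) and 30.1 in Esrrb+Hh-CM (adjusted p = 2.0e-05), and was at 77.2 in Esrrb, where it passed the adjusted p at a log2 change of 0.22. The median log2 change of the 13 was -0.03 with Hh-CM, -0.06 with Esrrb and -0.20 with both, beside 0.04, 0.05 and 0.08 over all tested genes.

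**Figure D4:**
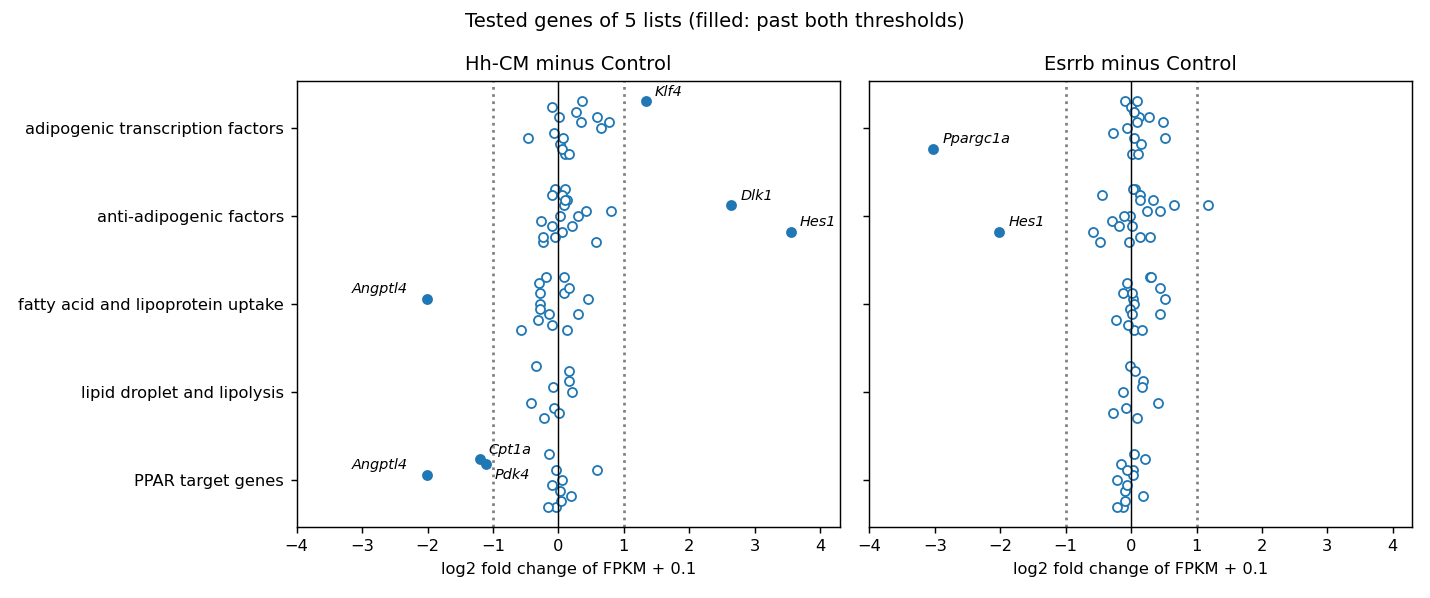
Log2 fold changes of FPKM + 0.1 in Hh-CM (left) and Esrrb (right) against Control for the tested genes of 5 lists, where filled points passed both thresholds, dotted lines mark a change of 1 in size and the vertical offset within a list only separates points. Most genes of each list lie between the dotted lines, Angptl4, Cpt1a and Pdk4 are lower with Hh-CM and near 0 with Esrrb, and Ppargc1a is lower with Esrrb and near 0 with Hh-CM.

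Relatives of the 10 genes in the same families were read as well. Of 21 such genes, 8 were tested. With Hh-CM 1 was called, with Esrrb 0 and with both 0, against 2.76%, 1.47% and 6.21% of all tested genes. Without the fold limit, 3 passed upwards and 2 downwards with Hh-CM, 2 and 0 with Esrrb, and 4 and 1 with both. The shares of all tested genes in either direction were 18.0%, 16.4% and 35.0%. Fabp1, Fabp2, Fabp6 and Fabp7 were listed at 0 in all 8 samples, and Fabp3 in 7, so Fabp4 and Fabp5 were the fatty acid binding protein genes of the list with an expressed locus. Steap3 was at 120, 165, 111 and 142 FPKM in Control, Hh-CM, Esrrb and the combined condition, and Steap1 at 27.0, 21.4, 39.9 and 32.4 FPKM, neither in the order of Steap4. Cebpg was at 23.7, 31.7, 25.7 and 35.8 FPKM in the same order of conditions. Ppard, the gene for PPARδ, was the gene called, at 14.4 to 16.6 FPKM in 6 samples, and its best locus was listed at 0 in both Hh-CM samples. There the overlapping loci summed to 12.9 and 24.0 FPKM, and with the loci summed its difference between Hh-CM and Control was 0.24 on the log2 scale with a limma adjusted p of 0.60.

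Preadipocyte markers were read alongside. Of 13 such markers, 12 had a locus and 8 were tested, and the 12 summed to 1403 to 1419 FPKM in Control, 3804 to 4276 with Hh-CM, 1512 to 3085 with Esrrb and 1917 to 1980 with both. Dlk1 made up most of the difference between Control and Hh-CM, at 449 and 2810 FPKM on average, and of that between the 2 libraries labelled Esrrb. With Hh-CM, 3 of the 8 tested markers passed the adjusted p upwards and 2 downwards (18.0% of all tested genes in either direction), with a median log2 change of -0.04. Dlk1 and Thy1 were called higher with Hh-CM and 0 lower, 0 were called with Esrrb, and 1 was called higher and 1 lower with both. The shares of all tested genes called in either direction were 2.76%, 1.47% and 6.21%. Thy1, a surface glycoprotein gene of fibroblasts, rose from 87.6 to 397 FPKM with Hh-CM and to 530 FPKM with both, and was at 96.3 FPKM in Esrrb. Cd24a, whose protein marks early adipocyte progenitors, fell from 34.4 FPKM in Control to 10.9 in Esrrb+Hh-CM (limma adjusted p = 2.3e-05). The part of these genes' changes in those of the 10 genes was not tested.

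The tested genes nearest to Steap4 and Fabp4 in profile were found as those with the smallest root mean square difference in log2(FPKM + 0.1), centred over the 8 samples. For Steap4, whose own profile had a root mean square of 0.849, these were Hlf at 0.0796, Lrrc8d at 0.139 and Pkdcc at 0.231. Hlf, which encodes a PAR bZIP transcription factor, was at 2.32 FPKM in Control, 4.89 with Hh-CM, 6.22 with Esrrb and 11.1 with both. For Fabp4, with a root mean square of 0.840, they were Aldh1a7 at 0.231, the histone gene Hist2h2ac at 0.250 and Myl9 at 0.265. Aldh1a7, an aldehyde dehydrogenase gene, went from 3.74 FPKM in Control to 1.28 with Hh-CM, 1.42 with Esrrb and 0.485 with both, and Myl9, a myosin light chain gene, from 35.2 to 22.4, 20.3 and 10.4 FPKM. These genes were picked for their likeness over the same 8 samples, so their changes are a description.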

How the data were processed

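RNA was measured in 8 NIH3T3 samples, 2 in each of 4 conditions, by stranded mRNA libraries sequenced on an Illumina HiSeq instrument. The authors trimmed reads with FASTX-Toolkit, used Bowtie2 and TopHat2 for alignment to mm9, and assembled and quantified loci in each sample with Cufflinks, guided by annotation. The deposited values are FPKM per locus, 26283 to 27992 loci per sample. The deposited tables give no read counts, and the study states only an approximate number of reads common to all samples, so the depth of each sample is not known from these files. Relative depth was estimated from the steps between low FPKM values. The deposited confidence bounds were not used. Of the FPKM values above 0, 7.8% (Esrrb 1) to 11.0% (Hh-CM 2) of a sample lay outside their own bounds.

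Because loci were assembled per sample, each gene of the mm9 annotation (GENCODE M1) was given the locus that best overlapped the gene or one of its transcripts (shared bases over all bases of at least 0.5), which placed 72.6% to 77.1% of loci with an FPKM of at least 1. A locus that differs in extent between samples can shift an FPKM. Of the 10283 genes tested, 5628 had a locus with the same ends in all 8 samples. log2(FPKM + 0.1) was fitted with limma 3.58.1 in R 4.3.3, with all 8 samples in the fit and a variance trend, for the genes that reached 1 FPKM in 2 or more samples. Fold changes are on that scale, which understates changes of low genes. p-values were adjusted by Benjamini and Hochberg over all 10283 genes, and a call needed an adjusted p below 0.05 and, except for the interaction, a log2 change of at least 1 in size. Tables were handled with Python 3.11.15, pandas 2.3.3 and numpy 2.4.6, figures drawn with matplotlib 3.10.9, and the code was tested on simulated data.

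The genes, lists and tests were chosen with earlier results of these data known. Named beside the 10 genes are called or interacting genes of the lists, marker and check genes, and the 3 genes most like Steap4 and Fabp4 in profile; family members and genes listed at 0 were named after their values were seen. Alternatives were other pseudocounts (1 and 0.001), filters, overlap (0.8), summed loci, rescaled samples, no trend, only the groups compared, a replicate block and each sample left out. Fits with the locus containing Cebpd, with and without Hh-CM 1, and with genes of identical loci were added after seeing the data.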

Additional observations from a re-analysis of the deposited data

Results flagged for a closer look

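For 5 genes of the lists, the limma interaction passed an adjusted p of 0.05, against 1.35% of all tested genes. It compares the response to Hh-CM in libraries labelled Esrrb with that in empty vector libraries. None of these 5 is among the 10 genes. Each was the only gene of its list to pass, with 8, 13, 21, 16 and 8 genes tested in the order below. No gene of the other lists passed, and that of Ppard was lost with loci summed. Cd24a had an interaction of -0.85 on the log2 scale (adjusted p = 0.00997), with means of 34.4 FPKM in Control, 32.5 with Hh-CM, 20.9 with Esrrb and 10.9 with both. Pdk4 had -0.62 (adjusted p = 0.00841), falling further with Hh-CM in the libraries labelled Esrrb. Ddit3, the gene for the C/EBP family member CHOP, which blocks C/EBP dimers from DNA, had 0.50 (adjusted p = 0.00863), with 195 FPKM in Control, 165 with Hh-CM, 140 with Esrrb and 169 with both. Cav1, the gene for the membrane protein caveolin-1, had -0.41 (adjusted p = 0.0149), with 394, 317, 336 and 204 FPKM in the same order, and its adjusted p was 0.0597 without Control 1, 0.0552 without Hh-CM 2, 0.06 without Esrrb 1 and 0.0612 without Esrrb 2. Ppard had 7.14, with its best locus at 0 in both Hh-CM samples, and with loci summed the value was -0.33 (adjusted p = 0.691).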

How the results depend on the processing

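The Steap4 calls and the Fabp4 call in Esrrb+Hh-CM against Control passed both thresholds under every alternative run. The number of the 6 genes called in Hh-CM against Control (2) became 1 with a pseudocount of 1 or no filter and 5 without a fold limit. In Esrrb against Control (2) it became 1 with no filter and 6 without a fold limit, and in Esrrb+Hh-CM against Control (2) it became 6 without a fold limit. In Esrrb+Hh-CM against Hh-CM (2) it became 1 with a pseudocount of 1, no filter or the compared groups alone, and 4 without a fold limit. Against Esrrb (1) it became 0 under those 3 settings and 4 without a fold limit. The interaction (0) became 1, Fabp5, with rescaled samples (adjusted p = 0.0417), an overlap of 0.8 (0.0489) or identical loci (0.0309). Leaving out single samples, the counts ranged from 1 to 2, 1 to 2, 2 to 2, 1 to 2, 0 to 1 and 0 to 1 in the order of comparisons above.

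Signs turned for small differences. Fabp5 in Esrrb+Hh-CM against Hh-CM was -0.0187 with rescaled samples, and -0.025 to 0.0853 with single samples left out, the lowest without Esrrb+Hh-CM 1. The Fabp4 interaction was 0.0911 with a pseudocount of 1, and -0.37 to 0.23 with samples left out, and that of Lpl was -0.0594 to 0.0155. With loci summed, Ppard was 0.24 in Hh-CM against Control, -0.19 in Esrrb+Hh-CM against Hh-CM and -0.33 for the interaction. The Cebpd interaction was 0.14 without Hh-CM 1. With a pseudocount of 1, Hes1 in Esrrb against Control (-0.59) and Tek (0.98) and Flt1 (-0.86) in Hh-CM against Control came under the fold limit, and Dlk1 in Hh-CM against Control had an adjusted p of 0.119 with no filter. The causes were not tested, except that summing loci filled the zeros of Ppard.

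Samples with the same replicate number did not deviate together (mean correlation 0.00547 over 6 pairs of conditions, from -0.0596 to 0.0624). The values thus showed no large shift shared by a replicate number. Whether the number pairs samples by design is not stated in the sources used here. With the replicate number as a block, the numbers of genes called stayed 2, 2, 2, 2, 1 and 0. With 2 samples per condition and no counts, changes of Pparg, Cebpa and Cd36 could not be resolved.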
